A study of Mus musculus with 36 samples.

Results

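DNA methylation was followed at 10 planar cell polarity (PCP) genes, Vangl2, Celsr1, Scrib, Ptk7, Dvl1, Dvl2, Dvl3, Fzd3, Fzd6 and Prickle1, in embryonic mouse brains that lacked 1 or both copies of Tet1, whose product oxidizes 5-methylcytosine and so opens the way to its removal. The members were taken by name, as genes of the pathway known for roles in neural tube closure, and all 10 of the 20696 autosomal protein-coding genes named in this way were found in the annotation. Oxidative bisulfite sequencing, which reads 5-methylcytosine alone because 5-hydroxymethylcytosine is oxidized and then converted, was combined with a reduced representation made with the enzymes MspI and TaqI, so only CpGs close to their cutting sites were seen. A gene body was taken with 2 kb on either side, and these windows held 2715 of the 3203127 autosomal CpGs covered in any embryo and 1082 of the 921363 with 5 or more reads in each of the 35 embryos compared. All embryos carried the Tet1tm1Koh allele or its wild type counterpart on a 129S6.Cg congenic background and were collected at E11.5 from heterozygous dams. Folic acid in the purified diets of the dams was in excess at 30 ppm, at the control level of 3 ppm or depleted to 0.1 ppm, and every diet also held the antibiotic succinylsulfathiazole. Wild type (WT) embryos numbered 3, 4 and 2 on the 30, 3 and 0.1 ppm diets, heterozygous (HET) embryos 5, 3 and 2, and knockout (KO) embryos 6, 5 and 5. Of the 16 KO embryos, 7 were labelled normal, 5 had a neural tube defect (NTD) and 4 carried the code inHB. WT 0.1 ppm replicate 2 and HET 30 ppm replicates 3 and 4 also carried inHB, and the other WT and HET embryos were labelled normal. The labels do not spell this code out, and the study's list of embryos describes them as having a brain malformation. Each library came from the brain of 1 embryo, a mixture of cell types at a stage after the tube normally closes, and the tables hold no transcript levels with which the tissue could be checked.

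PCP is the shared orientation of cells within the plane of a sheet. Its core proteins sort to opposite faces of each cell, with Vangl and Prickle proteins on one face, Frizzled and Dishevelled proteins on the other, and Celsr cadherins joining both across the cell border. In the neural plate this polarity guides convergent extension, in which cells intercalate so that the plate narrows and lengthens before its folds meet, and mouse mutants of several of these genes are known for open neural tubes.

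Sequencing depth differed widely. The 35 libraries held 25648249 to 197322320 CpG calls with a median of 34094943, at a mean coverage of 12.1 to 61.5 reads per CpG. A level below is the share of reads that were methylated, pooled over the CpGs of a region, and because the reads of 1 fragment are not independent molecules the test took its error from the spread between embryos. In 3 libraries the values at Tet1 went against the label. At the CpG chr10:62884019 in Tet1, the level was 0 to 7.32% in 7 WT libraries, 8.33 to 69.2% in the 10 HET libraries and 69.6 to 100% in 15 KO libraries, whereas the library labelled KO 30 ppm replicate 1 read 45% and the libraries labelled WT 30 ppm replicate 2 and WT 0.1 ppm replicate 2 read 36.36 and 40%. In the study's list of embryos that KO library is entered as heterozygous, against its deposited label of KO. Groups follow the deposited labels here, so the 3 libraries were kept, and many of the results that rest on them, but not all, are also given without them.

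Loss of both Tet1 copies was accompanied by higher methylation in the bodies of most PCP genes, as in most gene bodies tested. The mean level of the PCP promoters was at most 10.6% in either KO or WT. Over all diets, 7 of the 10 bodies rose in KO against WT at an adjusted p below 0.05 and all 10 mean differences pointed upwards, with a median of 2.23 percentage points. None of the 10 bodies passed both this p and a difference of 10 points, the criterion for a call, against 7.3% of all gene bodies tested. With the adjusted p alone, 54.3% of all bodies passed upwards and 93.4% pointed upwards, with a median difference of 2.74 points. By their median difference and their calls, the 10 bodies did not stand above all gene bodies. The largest differences belonged to Vangl2 and Ptk7. Of 53 tested member tiles of 1 kb, 7 were called (13.9% of all tiles), and they lay in these genes. Without the 3 libraries that went against their labels 10 of 55 tiles were called (18.3% of all tiles), which added 1 tile of Vangl2 and 2 of Celsr1, and without KO 30 ppm replicate 1 alone 7 of 53 were (15.3%). With the 3 libraries left out, 7 bodies passed (60.5% of all bodies passed upwards) and 3 promoters did (33.8% of all promoters). Differences here and below are KO minus WT within each diet, weighted by the number of KO embryos, and p-values come from a quasi-binomial test adjusted by the Benjamini-Hochberg method over all features of that kind.

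**Figure D1:**
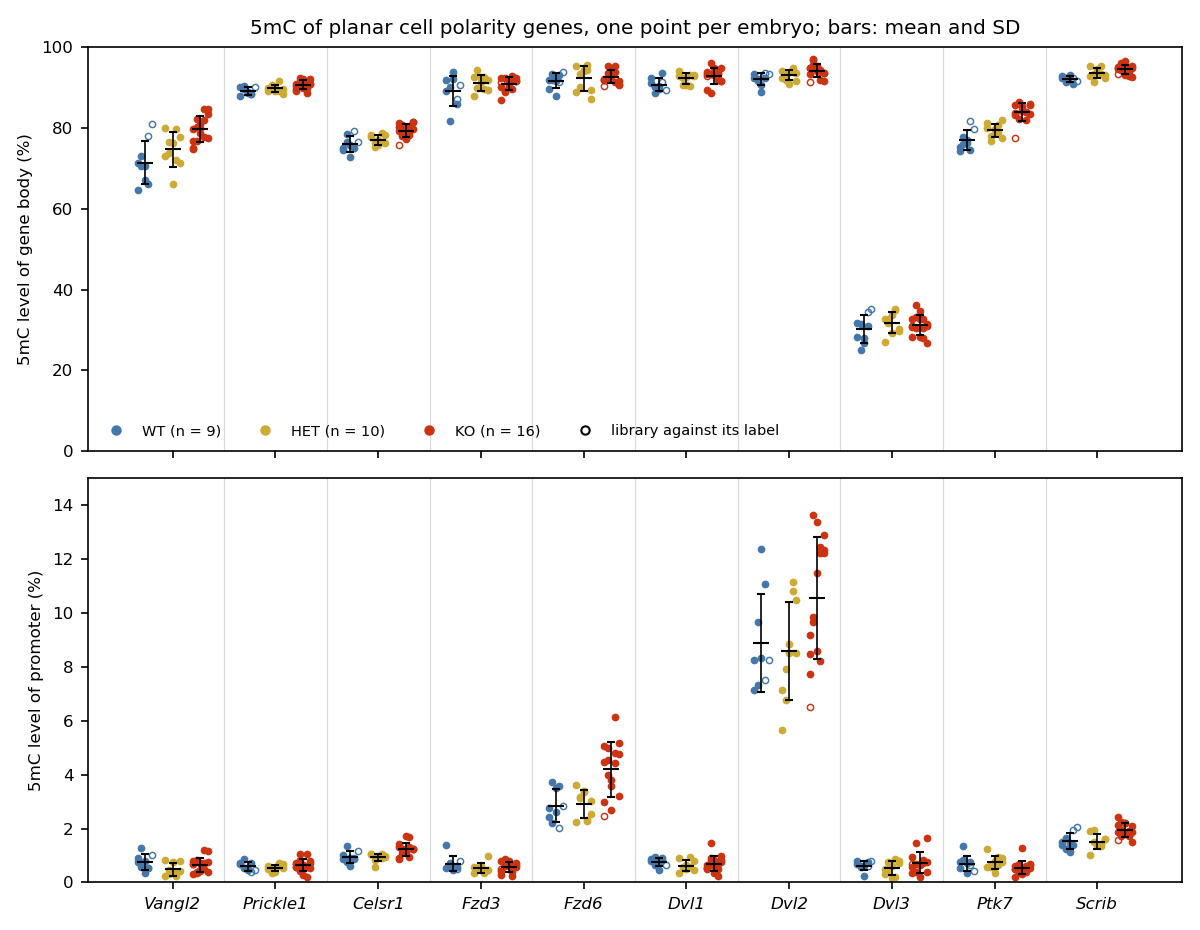
Methylation level (percent of reads, y axis) of the promoter and body of the 10 PCP genes in each of the 35 embryos by genotype, over CpGs with 5 or more reads in all embryos, with bars for the group mean and SD and open points for the 3 libraries that went against their labels. Bodies of Vangl2 and Ptk7 had the largest mean differences of the 10 genes, with means of 71.4 and 76.9% in WT and 79.7 and 84.0% in KO, and apart from Dvl2 and Fzd6 every promoter mean lay below 2% in each genotype.

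The transmembrane protein Vangl2, on the face shared with Prickle, occupies chr1:172000960-172028444 (mm10, minus strand). Its promoter, taken as 1 kb to either side of each protein-coding transcript start, was nearly free of methylation, at 0.753% ± 0.291 (SD, n = 9) in WT and 0.650% ± 0.269 (n = 16) in KO over 37 CpGs (difference -0.11 points, adjusted p = 0.475). The 250 bases upstream of the RefSeq start (GRCm38.p6, chr1:172027296-172027545, minus strand) are shown because they hold 13 measured CpGs, in capitals, of 18 in all, whose level was 0.802% in WT and 0.574% in KO.
Vangl2 promoter: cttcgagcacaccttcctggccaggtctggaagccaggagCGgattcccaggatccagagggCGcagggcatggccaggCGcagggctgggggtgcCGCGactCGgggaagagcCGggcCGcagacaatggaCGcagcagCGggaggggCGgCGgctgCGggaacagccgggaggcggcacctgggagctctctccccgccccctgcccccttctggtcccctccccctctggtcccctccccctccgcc
The body was methylated at 64.7 to 80.9% in WT, median 70.5%, and at 74.9 to 84.7% in KO, median 79.9%. The groups overlapped, 5 of 16 KO embryos exceeding the WT range, and the mean rose from 71.4% ± 5.35 to 79.7% ± 3.13 (difference 7.79 points, adjusted p = 3.28e-04). The body no longer passed with CpGs covered 10 times (4.97 points, adjusted p = 0.0553), and with the promoter set at the 5′ end of the gene only, so that the start within the gene counted as body, the difference was 3.08 points (adjusted p = 0.449).

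Of the 5 tested tiles of Vangl2, 3 were called over all diets, against 13.9% of all tiles. The tile from chr1:172012001 covers exon 4 of ENSMUST00000111263, 14.4 kb from the nearest protein-coding transcript start. It has 3 CpGs and at least 33 reads in each embryo when reads are summed over its CpGs. A read over several CpGs then counts once for each of them. Its neighbour from chr1:172013001 lies in intron 3, also with 3 CpGs. The stretch that carries these 6 CpGs is shown on the plus strand (chr1:172012880-172013074, mm10), followed by the stretch of the third tile in intron 2 (chr1:172023584-172023648), 3.69 kb from the same start, with the measured CpGs in capitals.
Vangl2 exon 4 and intron 3: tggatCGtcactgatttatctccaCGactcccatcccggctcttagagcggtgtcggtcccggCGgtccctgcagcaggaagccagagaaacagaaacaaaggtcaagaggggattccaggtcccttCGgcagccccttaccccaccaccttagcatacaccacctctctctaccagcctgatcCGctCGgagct
Vangl2 intron 2: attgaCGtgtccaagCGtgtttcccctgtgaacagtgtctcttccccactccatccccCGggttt
Over the first stretch the pooled level was 50 to 78.3% in WT (64.9% ± 10.9) and 70.8 to 88.7% in KO (80.1% ± 4.85). In the exon 4 tile the WT embryos ranged from 39.4 to 73.1%, median 60%, and the KO embryos from 60.7 to 84.7%, median 72.7%. The groups overlapped, and the mean rose from 58.6% ± 12.3 to 73.0% ± 6.48 (14.1 points, adjusted p = 0.00317). Its intron 3 neighbour went from 56.7 to 88.9%, median 75%, in WT to between 78.9 and 100%, median 87.7%, in KO (13.4 points, adjusted p = 4.60e-04). Without WT 0.1 ppm replicate 1 this last difference was 8.40 points (adjusted p = 0.00201), below the 10 points of a call. The intron 2 tile kept the groups apart, with WT embryos at 68.8 to 80.7%, median 74.7%, and KO embryos at 80.8 to 94.5%, median 87.0%. All 16 KO embryos lay above every WT embryo (11.7 points, adjusted p = 4.32e-05). The gap was narrow, and the share of all tested tiles that separate in this way was not determined. Without the 3 libraries that went against their labels, the differences were 21.01, 20.7 and 13.3 points in exon 4, intron 3 and intron 2.

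With the diets pooled, HET embryos lay between WT and KO in each of these Vangl2 tiles by their means, at 61.0% in exon 4, 81.9% in intron 3 and 82.9% in intron 2, and none of the 3 tiles was called in HET against WT. All measured CpGs of the 3 tiles were higher in KO than in WT by their means, by 9.67 points at chr1:172023599 to 16.7 points at chr1:172012904. These single-CpG differences are between plain means over the diets. The tiles were picked by their difference in the same embryos, so the shared direction adds no support.

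**Figure D2:**
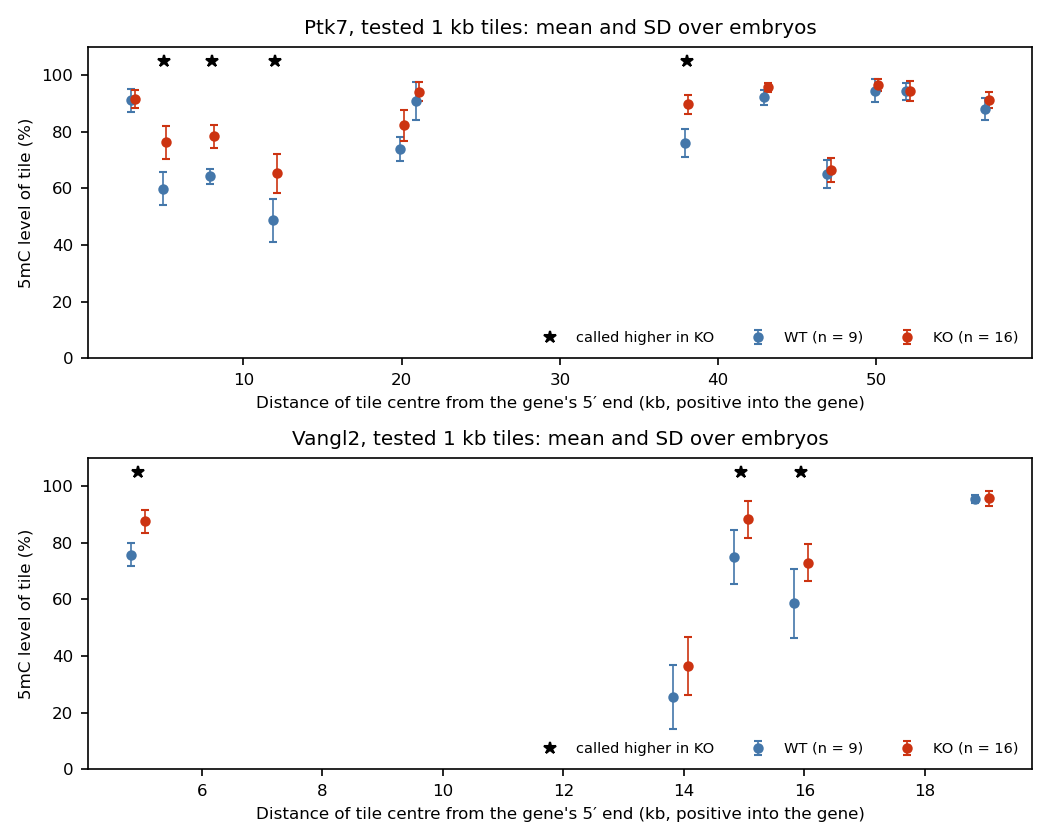
Methylation level (percent, y axis) of the tested 1 kb tiles of Vangl2 and Ptk7 against the distance of the tile centre from the 5′ end of the gene (kb, x axis), with the mean and SD of 9 WT and 16 KO embryos and a star over called tiles. At the 7 starred tiles KO differed from WT by 11.7 to 17.6 points.

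Ptk7, a transmembrane pseudokinase that acts as a co-receptor in the pathway, spans chr17:46564471-46629504 (mm10, minus strand). Its promoter level was 0.742% in WT and 0.554% in KO over 59 CpGs (difference -0.20 points, adjusted p = 0.217). The 79 CpGs of the body were methylated at 74.3 to 81.7% in WT, median 76.2%, and at 77.4 to 86.5% in KO, median 84.0%. The overlap was small, since 15 of the 16 KO embryos exceeded the highest WT value, and the mean rose from 76.9% ± 2.47 to 84.0% ± 2.23 (6.88 points, adjusted p = 2.54e-07).

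Within Ptk7 the 4 called tiles, of 12 tested, lie in exon 2 and intron 1 of ENSMUST00000044442, and the lincRNA Gm26904 overlaps the intron tiles. They are shown on the plus strand (mm10) with the measured CpGs in capitals, because they are the tiles of the gene that were called: exon 2, 37.9 kb from the start (chr17:46591615-46591701), and intron 1 at 12.1 kb (chr17:46617319-46617454), 8.33 kb (chr17:46621040-46621325) and 4.71 kb (chr17:46624661-46624958).
Ptk7 exon 2: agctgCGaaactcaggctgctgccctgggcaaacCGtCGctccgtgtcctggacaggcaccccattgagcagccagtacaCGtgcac
Ptk7 intron 1, 12.1 kb: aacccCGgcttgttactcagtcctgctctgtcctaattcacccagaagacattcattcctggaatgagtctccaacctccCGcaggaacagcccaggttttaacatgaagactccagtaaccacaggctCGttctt
Ptk7 intron 1, 8.33 kb: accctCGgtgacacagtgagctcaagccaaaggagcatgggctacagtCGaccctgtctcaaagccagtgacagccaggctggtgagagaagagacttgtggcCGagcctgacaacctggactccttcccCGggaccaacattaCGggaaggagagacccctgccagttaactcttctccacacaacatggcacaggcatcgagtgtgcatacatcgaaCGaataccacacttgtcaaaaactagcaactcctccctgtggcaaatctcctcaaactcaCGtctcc
Ptk7 intron 1, 4.71 kb: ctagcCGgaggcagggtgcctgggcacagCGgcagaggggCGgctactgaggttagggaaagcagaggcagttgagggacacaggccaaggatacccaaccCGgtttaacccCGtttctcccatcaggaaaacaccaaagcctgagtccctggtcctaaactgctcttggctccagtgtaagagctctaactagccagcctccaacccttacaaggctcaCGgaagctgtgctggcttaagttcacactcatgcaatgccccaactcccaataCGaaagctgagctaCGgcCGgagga
The last stretch leaves out 1 of the 10 CpGs of its tile, which lies outside the window. In the exon 2 tile (4 CpGs, at least 60 reads summed over them in each embryo) the level was 67.9 to 85.4% in WT, median 75.9%, and 82.5 to 95.5% in KO, median 89.9% (13.9 points, adjusted p = 1.08e-08). Only 2 KO embryos failed to exceed every WT embryo. The tile at 12.1 kb, with 3 CpGs and the lowest read support of the 4, held 35.19 to 60.5% in WT, median 50.47%, and 47.7 to 82% in KO, median 65.7% (17.6 points, adjusted p = 2.91e-06). At 8.33 kb (7 CpGs, at least 104 reads summed over them) WT embryos were confined to 58.9 to 66.5%, median 65.1%, and KO embryos to 68.2 to 85.7%, median 78.9% (14.0 points, adjusted p = 9.77e-09). Here no KO embryo overlapped the WT range, and the share of all tested tiles that separate in this way was not determined. At 4.71 kb (10 CpGs, at least 149 reads summed over them) the level was 47.7 to 67.6% in WT, median 59.6%, and 58.6 to 82.3% in KO, median 77.7% (16.1 points, adjusted p = 2.25e-07). The lowest of these KO values belonged to the library labelled KO 30 ppm replicate 1, and without the 3 libraries that went against their labels the lowest KO embryo was at 72.5%. The differences without them were 17.2, 20.2, 15.7 and 19.2 points in the same order.

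The 24 CpGs of the 4 Ptk7 tiles were all higher in KO by their means, from 4.16 points at chr17:46624952, already at 85.2% in WT, to 31.2 points at chr17:46624762, at 39.4% in WT. As in Vangl2, these are differences of plain means over the diets, within tiles picked by their difference, and their shared direction adds no support. With the diets pooled, HET means in the 4 tiles were 84.8, 54.85, 69.5 and 63.4%, each between those of WT (76.0, 48.8, 64.3 and 59.9%) and KO (89.8, 65.3, 78.4 and 76.4%).

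**Figure D3:**
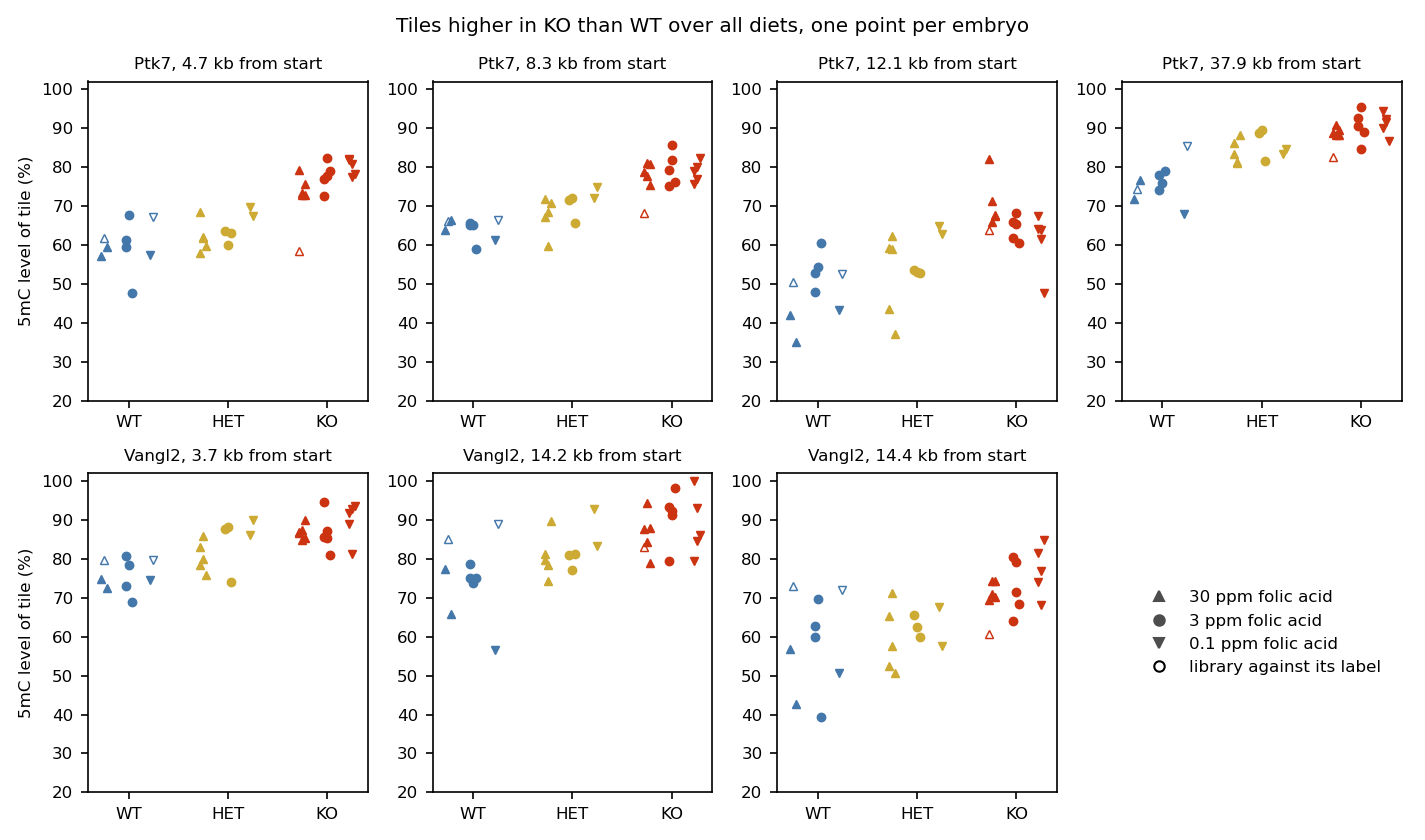
Methylation level (percent, y axis) of each embryo in the 7 tiles of Vangl2 and Ptk7 called in KO against WT over all diets, by genotype and diet (symbols), with open symbols for the 3 libraries that went against their labels. KO and WT embryos did not overlap in the Vangl2 intron 2 tile (at least 80.8% against at most 80.7%) and the Ptk7 tile at 8.33 kb (at least 68.2% against at most 66.5%). The share of all tested tiles without overlap was not determined.

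Celsr1, the atypical cadherin that joins the complexes of neighbouring cells, lies at chr15:85898929-86033777 (minus strand). Its body rose from 77.0% ± 2.15, range 73.6 to 80.4%, to 80.1% ± 1.53, range 77.0 to 82.3% (2.91 points, adjusted p = 2.37e-04), and 7 of 16 KO embryos exceeded the WT range. Its promoter rose by 0.28 points from 0.938 to 1.24% (adjusted p = 0.00359), and at CpGs covered 10 times the difference was 0.09 points (adjusted p = 0.303). Of its 16 tested tiles, the one with the largest difference, in intron 24 at chr15:85910001, had 66.9% in WT and 75.3% in KO without passing the test (7.29 points, adjusted p = 0.171). Without the 3 libraries that went against their labels this Celsr1 tile was called (10.7 points, adjusted p = 0.0168), as was that at chr15:85949001 (12.2 points, adjusted p = 0.00550), where the means over all embryos were 67.7% in WT and 74.0% in KO.

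The genes of the Wnt receptors Fzd3 and Fzd6 had highly methylated bodies in both genotypes. The 7 body CpGs of Fzd3 (chr14:65192449-65262463, minus strand) averaged 89.1% ± 3.73 in WT and 90.9% ± 1.58 in KO (2.48 points, adjusted p = 0.143). With 1 embryo left out, this Fzd3 difference ranged from 0.827 to 3.13 points. The 10 body CpGs of Fzd6 (chr15:39006034-39038188, plus strand) averaged 91.6% ± 1.86 and 92.6% ± 1.62 (0.78 points, adjusted p = 0.594), so neither body passed the test. Each gene had 1 tested tile, in intron 1 of Fzd3 (chr14:65256001, 84.9% in WT and 87.0% in KO, 2.85 points, adjusted p = 0.113) and in exon 4 of Fzd6 (chr15:39031001, 92.0 and 92.5%, 0.22 points, adjusted p = 0.909). The Fzd6 body was at -0.95 points without the 3 libraries that went against their labels, and with the promoter set at the 5′ end of the gene only it rose by 5.04 points (adjusted p = 9.92e-04). The Fzd6 promoter rose from 2.85% ± 0.617, range 2.03 to 3.73%, to 4.20% ± 1.01, range 2.48 to 6.15% (1.34 points, adjusted p = 0.00154), and 11 of 16 KO embryos exceeded the WT range. With that narrower promoter, this difference was 0.06 points (adjusted p = 0.899). At the Fzd3 promoter, WT and KO averaged 0.695 and 0.590% (-0.08 points, adjusted p = 0.765).

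Among the cytoplasmic partners, Prickle1 (chr15:93499114-93595891, minus strand), which binds Vangl proteins, rose in its body from 89.1% ± 0.892 to 90.7% ± 1.07 (1.68 points, adjusted p = 0.00247), but did not pass at CpGs covered 10 times (1.26 points, adjusted p = 0.0929) or with the promoter at the 5′ end only (2.42 points, adjusted p = 0.656). Its tile with the largest difference, in intron 1 at chr15:93577001, had 92.7% in WT and 94.6% in KO (2.01 points, adjusted p = 0.558). The Dishevelled proteins Dvl1, Dvl2 and Dvl3 relay the signal from Frizzled receptors. The Dvl1 body (chr4:155847402-155859303, plus strand) rose from 90.7% ± 1.55 to 92.8% ± 1.89 (1.99 points, adjusted p = 0.0146), and its 1 tested tile, in exon 15 at chr4:155858001, had 78.9 and 80.4% (1.22 points, adjusted p = 0.478). In Dvl2 (chr11:70000595-70012301, plus strand) the body went from 92.0% ± 1.52 to 94.1% ± 1.65 (1.88 points, adjusted p = 0.0152), and 12 of 16 KO embryos exceeded the WT range. The Dvl3 body (chr16:20516982-20534010, plus strand) pooled to 25.2 to 36.5% in WT and 27.3 to 37.1% in KO, and did not pass the test (0.65 points, adjusted p = 0.595). This pool joins unlike parts. The tested tile within the gene, at chr16:20531001, stood at 91.8% in WT and 94.5% in KO. Another 3 tiles, which may include promoter tiles, varied too little to be tested and read at most 2.67% in each of these embryos. The window also reaches into the neighbouring gene Ap2m1, and which CpGs lowered the pool was not determined. The Dvl2 promoter had the highest promoter level of the 10 genes, at 8.88% ± 1.81 in WT and 10.6% ± 2.27 in KO (1.74 points, adjusted p = 0.106). The Dvl2 tile with the largest difference, at chr11:69999001, overlaps this promoter 0.694 kb from the nearest protein-coding transcript start. It rose from 87.5 to 92.2% over 3 CpGs (4.24 points, adjusted p = 0.0151), below the 10 points of a call. Promoters of Prickle1, Dvl1 and Dvl3 averaged 0.602 to 0.753% in WT and 0.676 to 0.733% in KO, and none passed. With the promoter at the 5′ end only, that of Prickle1 passed at 0.22 points (adjusted p = 0.0455), against 0.07 points as reported. Tiles were taken as a member's where they overlapped its window, and that of Dvl3 with the largest difference only reached the edge of its 2 kb flank. Its 3 CpGs, from chr16:20536019 to chr16:20536058, lie beyond that edge in the neighbouring gene Ap2m1, and their level rose from 1.25 to 5.55% (4.14 points, adjusted p = 3.47e-04), below the 10 points of a call.

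Scrib (chr15:76047158-76069784, minus strand), a polarity scaffold that binds Vangl2, had a highly methylated body that rose from 90.8 to 93.2%, median 92.3%, in WT to 92.7 to 96.5%, median 94.7%, in KO. The difference was 2.50 points (adjusted p = 1.75e-05), and 13 of 16 KO embryos exceeded the WT range. The promoter rose by 0.38 points, from 1.53% ± 0.304 to 1.94% ± 0.262 (adjusted p = 0.00385). Its tile with the largest difference, over exon 14 and intron 13 at chr15:76063001, rose from 86.6 to 93.4% (6.72 points, adjusted p = 0.00741).

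Taking the promoters together, 3 of 10 rose over all diets (Fzd6, Celsr1 and Scrib), against 32% of all promoters that passed upwards, and the members' median difference of 0.08 points compares with 0.20 over all promoters. None was called, against 4.14% of all promoters.

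Tiles were also set against their level in WT. Over all diets 53 member tiles were tested and 7 were called, all higher in KO, or 13.2% of them, against 13.9% of all tiles, and 52 of the 53 pointed upwards, against 88.3% of all tiles. The 7 called tiles stood at 48.8 to 76.0% in WT, median 64.3%, and the 46 others had a median of 90.6%, with 24 of them at 90% or more. A call needs a difference of 10 points, so a tile at 90% or more in WT could hardly be called higher, and the criterion itself ties calls to lower WT levels. Among tiles at 20 to 80% in WT, 7 of 18 member tiles were called, compared with 38.0% of all 14477 such tiles. Among tiles at 80% or more, none of 33 was called, compared with 0.230% of all 32634. Below 20% there were only 2 member tiles, neither called, compared with 31.0% of all 5711 tiles. A further 26 member tiles with enough CpGs varied by less than 2 points between embryos and were not tested, so the shares refer to tiles that vary.

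**Figure D4:**
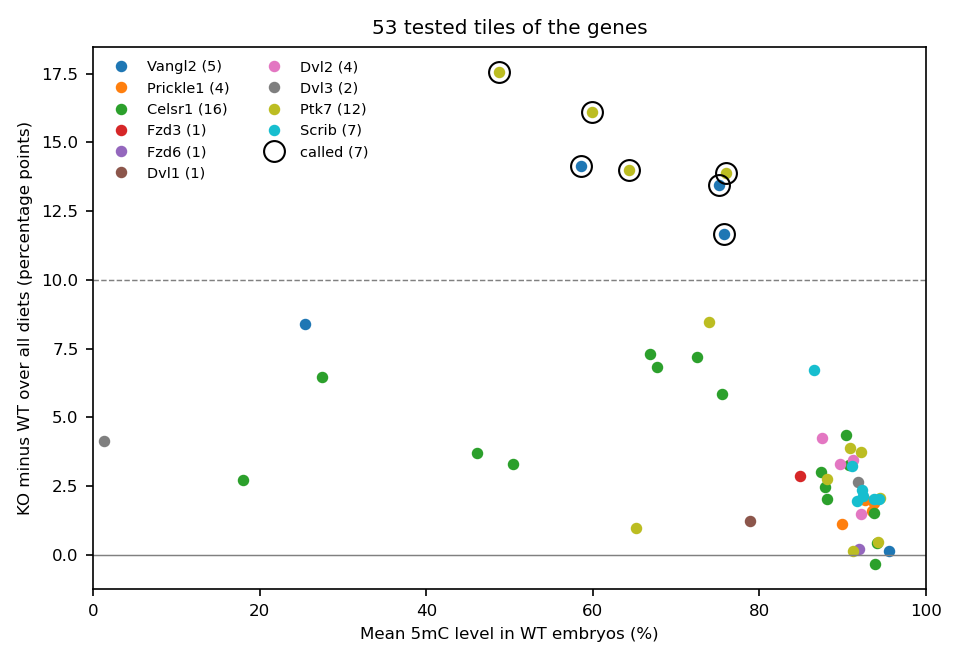
Difference between KO and WT (percentage points, y axis) against the WT level (percent, x axis) for the 53 tested tiles of the PCP genes over all diets, with called tiles marked. The 7 called tiles lie between 48.8 and 76.0% in WT, and the 33 tiles at 80% or more in WT have a median difference of 2.07 points.

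The study compared genotypes within each folic acid diet. On 30 ppm 5 of 63 member tiles were called (5.66% of all tiles), on 3 ppm 8 of 59 (16.3%) and on 0.1 ppm 7 of 57 (11.2%), all higher in KO. WT groups of 2 to 4 embryos stand behind these counts, and those on 30 and 0.1 ppm became 8 of 61 (15.9% of all tiles) and 12 of 62 (13.4%) without the 3 libraries that went against their labels, when 1 WT embryo remained on 0.1 ppm and was assumed to vary like the other embryos. Without KO 30 ppm replicate 1 alone, 6 of 61 tiles were called on 30 ppm (11.8% of all tiles). The Vangl2 intron 2 tile and the Ptk7 tiles in exon 2 and at 8.33 and 4.71 kb were called on every diet, the Ptk7 tile at 12.1 kb on 30 and 3 ppm, and the Vangl2 intron 3 tile on 3 ppm. The share of all tested tiles called on every diet was not determined. The calls on 30 and 0.1 ppm depended on single embryos. On 30 ppm, leaving out any 1 of KO replicates 2 to 6 or WT replicate 3 gave 2 or 3 called tiles (2.68 to 3.47% of all tiles). Without WT 30 ppm replicate 1 no member tile was called on 30 ppm (0 of 63, against 0.0246% of all tiles), and none was then called on every diet. Without WT 0.1 ppm replicate 1, when the WT library that went against its label was alone in its group, 3 of 53 were called on 0.1 ppm (5.00% of all tiles), of which the Ptk7 tile at 4.71 kb was the single one also called on the other diets. With litter as a replicate block, the Ptk7 tile at 8.33 kb was the single one still called on every diet. The block took away the Vangl2 intron 2 call on 30 ppm (adjusted p = 0.0688) and 3 ppm (0.0644), the Ptk7 calls at 4.71 kb on 30 ppm (0.0636) and at 12.1 kb on 3 ppm (0.0600), and the Ptk7 exon 2 call on 0.1 ppm (0.0595). In bodies, 6 of 10 rose on 3 ppm against 37.9% of all bodies, 4 of 10 on 0.1 ppm against 23.8%, and none on 30 ppm against 0.0283%, where the quasi-binomial test gave 3 bodies an unadjusted p below 0.05 and 5 passed without the 3 libraries, as did 37.2% of all bodies. The 4 bodies on 0.1 ppm became 0 without WT 0.1 ppm replicate 1 (9.61% of all bodies) and 1 or 2 without any 1 KO embryo. Vangl2 on 3 ppm was the single body called, at 80.5% against 68.8% (11.6 points, adjusted p = 0.00398), where 9.83% of all bodies were called, and none of the 10 was called on 30 ppm (0.0283%) or 0.1 ppm (7.64%). The Ptk7 body rose by 8.91 points on 3 ppm (85.8 against 76.9%, adjusted p = 2.40e-06) and by 6.81 points on 0.1 ppm (adjusted p = 0.0162), and on 30 ppm its difference was 5.94 points (adjusted p = 0.0739). When litter was added as a block, the number of bodies that passed on 0.1 ppm went from 4 to 0 (12.5% of all bodies then passed upwards) and that of promoters on 3 ppm from 3 (26.3% of all promoters passed upwards) to 1 (26.4%). No promoter of the 10 genes passed on 30 ppm (4.09% of all promoters) or 0.1 ppm (17.1%), where 1 each had an unadjusted p below 0.05 in the quasi-binomial test.

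Some member tiles were called on 1 diet alone, and the share of all tiles with such calls was not determined. On 3 ppm the Vangl2 tile at chr1:172014001 in intron 2 stood at 47.6, 43.3, 36.8, 47.6 and 21.4% in the 5 KO embryos and at 21.01, 13.3, 19.1 and 13.7% in the 4 WT embryos. Every KO embryo exceeded every WT embryo (22.6 points, adjusted p = 0.00290), and the share of all tiles that separate so on 3 ppm was not determined. On 30 ppm the difference was 2.75 points (adjusted p = 0.669) and on 0.1 ppm it was 1.04 points (adjusted p = 0.769), where the 2 WT embryos, of which 1 library went against its label, read 31.0 and 48.7%. Over all diets this Vangl2 tile rose by 8.41 points (adjusted p = 0.0177), below a call, and it was called without the 3 libraries (12.7 points, adjusted p = 0.00193). The interaction of genotype with diet, which tests that contrast itself, gave -19.8 points for 30 against 3 ppm (adjusted p = 0.732) and -21.5 points for 0.1 against 3 ppm (adjusted p = 0.975), so no difference between diets passed the correction. The second tile, in intron 1 of Celsr1 (chr15:86028001), held 80, 72.9, 83.7, 89.1 and 84.2% in KO and 72.6, 70.0, 64.7 and 75.2% in WT on 3 ppm (11.4 points, adjusted p = 0.00496), and over all diets it rose by 7.18 points (adjusted p = 0.00181). On 30 and 0.1 ppm this Celsr1 tile differed by 4.54 and 7.33 points (adjusted p = 0.374 and 0.233), and neither interaction passed (adjusted p = 0.773 and 0.990).

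On 0.1 ppm the tile of Scrib at chr15:76068001, in intron 1 and 0.83 kb from the nearest transcript start, read 32.7, 36.8, 35.6, 34.12 and 39.3% in KO and 17.4 and 8.70% in WT (22.6 points, adjusted p = 0.00205). It rests on 3 CpGs and on a WT pair that includes a library that went against its label, without which the difference was 18.3 points. The tile overlaps the promoter window of Scrib. It did not pass the filters for KO against WT on the other diets or over all diets, so a difference between diets was not tested. Exon 1 of Celsr1 (chr15:86032001, 21 CpGs, 1.07 kb from the start) read 41.1, 33.3, 37.7, 30.3 and 34.2% in KO and 23.6 and 19.6% in WT (13.7 points, adjusted p = 9.82e-05), and this tile too overlaps the promoter window of its gene. The WT pair behind it, and behind the Ptk7 tile that follows, is the same as for Scrib. The same Celsr1 tile differed by 1.76 points on 30 ppm and 4.87 points on 3 ppm (adjusted p = 0.0681), and the interaction of 0.1 against 3 ppm was 8.81 points (adjusted p = 0.975). In Ptk7 the intron 1 tile at chr17:46609001, with 14 CpGs, rose from 63.1% ± 5.33 to 77.1% ± 1.10 on 0.1 ppm (14.0 points, adjusted p = 4.08e-04) and by 8.47 points over all diets (adjusted p = 0.00411). On 3 ppm this Ptk7 tile rose by 9.77 points over 7 CpGs (adjusted p = 0.0307), just under the 10 points of a call, and on 30 ppm it differed by 4.88 points (adjusted p = 0.656). Its interaction of 0.1 against 3 ppm was 1.82 points (adjusted p = 0.990).

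Loss of 1 copy was compared in the same way. Over all diets none of 51 member tiles was called in HET against WT by the quasi-binomial test (0.252% of all tiles), none had an unadjusted p below 0.05 together with 10 points, and 44 of 51 pointed upwards (73.5% of all tiles) with a median of 1.78 points. Within the 30, 3 and 0.1 ppm diets, 0 of 53, 61 and 61 were called (0, 0.805 and 0.0872% of all tiles called higher), with 0, 2 and 2 at an unadjusted p below 0.05 and 10 points. Below the 10 points of a call, the Ptk7 exon 2 tile rose by 9.17 points (adjusted p = 0.0130), and without the 3 libraries by 10.9 points (adjusted p = 4.03e-04), the 1 call among 51 member tiles in that setting, in which 1.74% of all tiles were called higher. The Ptk7 tile at chr17:46609001 rose by 7.44 points (adjusted p = 0.0478). All 10 bodies were higher in HET by their means, with a median of 1.29 points against 1.01 over all bodies, and none passed (0.182% of all bodies did), with 2 at an unadjusted p below 0.05, the lowest adjusted p being that of Ptk7 (78.9 against 76.2%, 2.70 points, adjusted p = 0.192).

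Between diets within a genotype, the quasi-binomial test called no member tile. In WT, 30 against 3 ppm gave 0 of 51 (0% of all tiles) and 0.1 against 3 ppm gave 0 of 54 (0.131%), in HET both comparisons gave 0 of 60 (0.0201 and 0.0866%), and in KO they gave 0 of 60 (0%) and 0 of 49 (0%). In that order, 0, 2, 2, 3, 0 and 0 tiles had an unadjusted p below 0.05 and 10 points. The tile of Celsr1 at chr15:85947001 came closest, with 25.9% ± 11.1 in the 2 WT embryos on 0.1 ppm and 13.1% ± 4.21 in the 4 on 3 ppm (12.7 points, adjusted p = 0.0723), and without the 3 libraries, when 1 WT embryo on 0.1 ppm was left and was assumed to vary like those on 3 ppm, its difference was 20.6 points and met the criterion for a call (1 of 61 member tiles, against 0.106% of all tiles called higher on 0.1 ppm). Neither interaction of genotype with diet called a member tile (0 of 58 for 30 and 0 of 54 for 0.1 against 3 ppm, with 2 each at an unadjusted p below 0.05 and 10 points and 0% of all tiles called).

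The quasi-binomial test called no tile between phenotypes in KO embryos. Of 58 tiles none was called between KO embryos with NTD and normal ones (0.00605% of all tiles) and of 53 none between inHB and normal (0%), and none had an unadjusted p below 0.05 together with 10 points. The mean of the Ptk7 body was 83.7% ± 1.30 in 5 NTD, 83.7% ± 4.24 in 4 inHB and 84.3% ± 1.43 in 7 normal KO embryos. That of the Vangl2 body was 77.6% ± 2.64, 80.8% ± 4.24 and 80.6% ± 2.30, and that of Dvl1 was 91.2% ± 2.14, 93.1% ± 1.35 and 93.8% ± 1.33, also with NTD lowest. These means are over CpGs covered in all 35 embryos, and the test uses those covered in the embryos compared. There the lowest adjusted p among the bodies was 0.848 for NTD and 0.884 for inHB against normal, and the Dvl1 body, lower in NTD by 2.21 points, was the single one with an unadjusted p below 0.05. The share of all bodies at that unadjusted p was not determined. Of the 10 bodies 3 were higher in NTD than in normal KO embryos. Their median difference was -0.41 points, against -0.42 over all bodies. Without the inHB embryo that went against its label, still none of 53 tiles was called between inHB and normal. A p above the threshold does not show that these groups are alike.

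**Figure D5:**
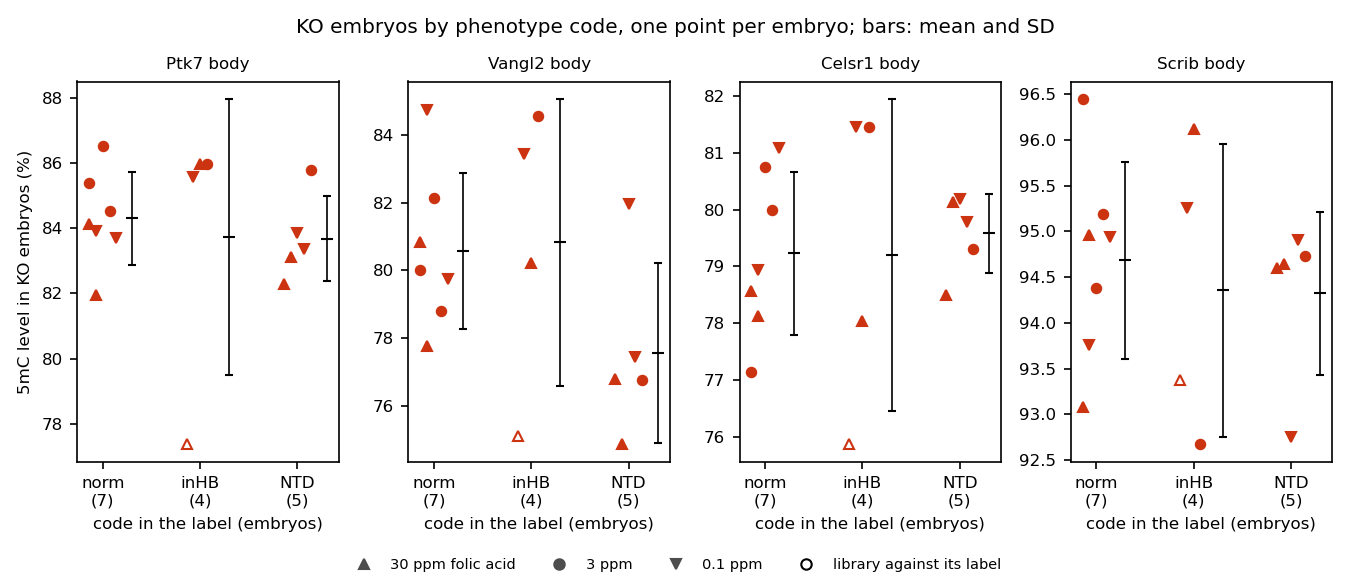
Methylation level (percent, y axis) of the bodies of Ptk7, Vangl2, Celsr1 and Scrib in the 16 KO embryos by phenotype code (7 normal, 4 inHB, 5 NTD), with group mean and SD and an open symbol for the library that went against its label. The groups overlap in each of the 4 genes, with Ptk7 means of 83.7 to 84.3% and Vangl2 means of 77.6 to 80.8%.

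Other genes of the pathway were followed as lists, to be read against all bodies, of which 54.3% passed upwards and 7.3% were called, with a median of 2.74 points. Of 8 other core genes, 7 bodies rose in KO over all diets, with a median difference of 4.44 points over the list, and 2 were called: Vangl1, the paralogue of Vangl2, went from 45.1% ± 5.35 to 62.7% ± 5.15 over 5 CpGs (17.8 points, adjusted p = 9.89e-07), and the Frizzled receptor gene Fzd1 from 3.41% ± 1.67 to 15.7% ± 4.47 (12.03 points, adjusted p = 9.85e-09). All 7 bodies of Wnt ligands and co-receptors rose, with a median of 3.10 points and none called. Of 15 tested bodies of effectors and trafficking genes, 10 rose, with a median of 2.62 points, and 3 were called: the adaptor gene Gipc1 (64.9 to 78.5%, 13.6 points, adjusted p = 5.13e-09), the Dishevelled antagonist gene Dact1 (66.2 to 79.0%, 11.98 points, adjusted p = 1.03e-05) and the transcription factor gene Grhl3 (68.5 to 79.6%, 11.3 points, adjusted p = 3.62e-08). In the Fat/Dachsous system, another set of polarity cadherins, 2 of 5 bodies rose and none was called, with Fat4 going from 27.2 to 36.5% (9.15 points, adjusted p = 1.14e-05). No promoter was called in any of these lists, where 1 of 8, 4 of 7, 6 of 16 and 3 of 4 tested promoters rose, against 32% of all promoters that passed upwards and 4.14% called.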

How the data were processed

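Brains of single E11.5 embryos were profiled by oxidative bisulfite RRBS. The authors trimmed reads with Trim Galore 0.6.10, aligned them with Bismark 0.24.1 to mm10, removed duplicates with UMI-tools and worked with methylKit 1.26.0. The deposited tables give for each CpG, strands joined, the methylated fraction and the coverage, a raw count of the reads behind it (at least 2). The authors' lists of differentially methylated regions hold their own comparisons and were not used. All columns were mapped to samples (0 unmapped). HET 0.1 ppm replicate 2 was left out, as in the study.

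Fraction times coverage gave whole methylated read counts. CpGs with 5 or more reads in all embryos compared were pooled into 1 kb tiles of the 19 autosomes (at least 3 CpGs, SD of at least 2 points) or into promoters and bodies of protein-coding genes (GENCODE M21). Reads were tested in a two-sided quasi-binomial logistic model (Python 3.11.15, numpy 2.4.6, scipy 1.17.1) whose dispersion was shrunk by the squeezeVar method of limma and never taken below 1, with Benjamini-Hochberg adjustment over all features. A call needed an adjusted p below 0.05 and 10 points. Diet was a covariate where diets were pooled. Simulated tiles were run through this test for KO against WT on 3 ppm and over all diets. They were also run for HET against WT over all diets and for NTD against normal in KO. The other comparisons, the promoters and bodies and the alternatives were not simulated.

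The members and lists were chosen with earlier results of these data known. Every member was named with its promoter and body, together with its tile of largest difference over all diets and every tile called elsewhere, up to 10 per comparison, and other pathway genes where called, up to 5 per list, with Fat4 named after its value was seen. Replicates are embryos, some from 1 litter. Pairs of different genotype from 1 litter deviated together only weakly by their median (correlation of deviations 0.041, range -0.050 to 0.283, over 35 pairs, against -0.0097 over 99 pairs from other litters of the same diet). A correlation above 0.1 was seen in 5 of the 35 and 5 of the 99 pairs. Littermates of the same genotype were left out of this check. Litter therefore entered as a replicate block only as an alternative. The other alternatives were 10 reads, other minimum differences, no SD filter, an SD filter on regions (added after seeing the data), 1 fit over all embryos, leaving out embryos, the promoter at the 5′ end only, each embryo's own CpGs, and equal weights tested with limma 3.58.1.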

Additional observations from a re-analysis of the deposited data

Results flagged for a closer look

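The promoters and bodies of the 10 genes and the 7 called tiles were examined in the genotype and diet groups of 4 to 6 embryos. In 12 of 135 such sets of values, 1 embryo stood apart from the rest of its group by Dixon's test, which chance alone does in about 1 set in 20. In 3 of the 12 the embryo was KO 30 ppm replicate 1, a library that went against its label, with 58.6% in the Ptk7 tile at chr17:46624001 (others 72.8 to 79.2%), 82.5% in the Ptk7 tile at chr17:46591001 (others 88.2 to 90.8%) and 60.7% in the Vangl2 tile at chr1:172012001 (others 69.4 to 74.4%). WT 3 ppm replicate 3 had 58.9% in the Ptk7 tile at chr17:46621001 (others 65.1 to 65.6%).

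HET 30 ppm replicate 4 was low in the bodies of Dvl1 (90.5%, others 92.4 to 92.9%) and Dvl2 (91.9%, others 93.5 to 94.0%). The Dvl1 body was at 88.6% in KO 30 ppm replicate 2 (others 91.8 to 93.4%), the Fzd3 body at 87% in KO 3 ppm replicate 5 (others 91.2 to 92.4%), the Prickle1 body at 89.9% in KO 0.1 ppm replicate 3 (others all at 90.9%) and the Ptk7 body at 85.6% in KO 0.1 ppm replicate 2 (others 83.3 to 83.9%). In promoters, Dvl2 was at 8.49% in KO 0.1 ppm replicate 5 (others 12.2 to 12.9%) and Fzd3 at 0.991% in HET 30 ppm replicate 3 (others 0.523 to 0.595%).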

How the results depend on the processing

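Of the values for single genes and tiles under the alternatives, 1096 kept their direction and side of the threshold, 11 passed only under the alternative, 14 passed only in the reported analysis and 17 changed sign. Of the counts by comparison, 415 kept within 1.5 times the reported count and 48 did not. For KO against WT, with the share of all tiles called higher in the same setting, the called tiles on 30 ppm (5) were 1 of 63 at 20 points (2.05%) and 8 of 61 without the 3 libraries that went against their labels (15.9%). On 3 ppm (8) they were 5 of 32 at 10 reads (18.5%), 1 of 59 at 20 points (5.50%) and 15 of 59 with no minimum difference (28.2%). On 0.1 ppm (7) they were 3 of 28 (14.8%) at 10 reads, 1 of 57 (4.36%) at 20 points and 12 of 62 (13.4%) without the 3 libraries. Over all diets (7) they were 3 of 25 (16.1%) at 10 reads, 0 of 53 (3.75%) at 20 points and 25 of 53 (40.16%) with no minimum. At 10 reads the called Vangl2 tiles and the Ptk7 tile at 12.1 kb had too few CpGs left to be tested over all diets. Bodies that passed were 5 without the 3 libraries (37.2% of all bodies) and 2 in 1 fit over all embryos (20.3%) on 30 ppm (reported 0), 1 at 10 reads on 0.1 ppm (24.8%, reported 4), and 4 of the 6 left by an SD filter over all diets (57.6%, reported 7). Promoters on 3 ppm (3) were 0 with that filter (62.7% of all promoters) and 1 with limma (26.6%), and over all diets (3) they were 0 with that filter (71.1%), which left 1 of 10 promoters to test in each case. HET against WT over all diets (0) gave 2 of 51 tiles with no minimum difference (0.804%) and 1 of 51 without the 3 libraries (1.74%), and 0.1 against 3 ppm in WT (0) gave 1 of 37 at 10 reads (0.194%) and 1 of 61 without them (0.106%), when its 0.1 ppm group was 1 embryo.

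With litter as a replicate block, bodies on 0.1 ppm (4) fell to 0 and promoters on 3 ppm (3) to 1, the 7 tiles over all diets all remained called, and no other count moved by over 1.5 times, though 5 single-diet tile calls were lost, as given above, and 1 tile of Prickle1 on 30 ppm (11.1 points, adjusted p = 0.0280) and 1 of Vangl2 on 3 ppm (14.7 points, adjusted p = 0.0333) were added. This block could not be fitted for HET against WT on 0.1 ppm, diets within a genotype or NTD against normal.

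Leaving out 1 embryo at a time gave 0 to 7 called tiles on 30 ppm (0 without WT 30 ppm replicate 1), 6 to 10 on 3 ppm, 3 to 12 on 0.1 ppm (3 without WT 0.1 ppm replicate 1, 12 without replicate 2) and 6 to 9 over all diets, while the share of all tiles called higher ranged over 0.0246 to 11.8%, 15.1 to 16.9%, 5.00 to 13.4% and 12.6 to 15.5%. Bodies ranged over 0 to 2, 6 to 7, 0 to 5 (0 without WT 0.1 ppm replicate 1) and 7 to 8, against 0 to 21.5%, 31.5 to 40.8%, 9.61 to 26.0% and 48.4 to 57.9% of all bodies. Promoters ranged over 2 to 4 on 3 ppm (23.3 to 26.4% of all promoters) and 3 to 4 over all diets (30.0 to 33.5%). HET against WT ranged over 0 to 1 on 3 ppm (0.586 to 1.19% of all tiles) and over all diets (0.0726 to 1.01%), as did 0.1 against 3 ppm in WT (0.106 to 0.479%) and in HET (0.0210 to 0.0544%, 1 tile without HET 0.1 ppm replicate 3).

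Signs changed for differences near 0. Without the 3 libraries the Fzd6 exon 4 tile was at -0.167, the Fzd6 body at -0.954 and the Prickle1 promoter at -0.0119 points. At 10 reads the Vangl2 promoter was at 0.0162 and the Dvl1 promoter at 0.0256 points, and with each embryo's own CpGs the Dvl1 promoter was at 0.0287 and the Fzd3 promoter at 0.0375 points. With 1 embryo left out the Fzd6 tile ranged from -0.907 to 1.34, the Fzd6 body from -1.36 to 1.05, the Dvl3 body from -0.268 to 1.77 and the Fzd3 promoter from -0.111 to 0.0420 points. WT groups held 2 to 4 embryos per diet, and only CpGs near cutting sites were read.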

Other observations

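In exon 15 of Dvl1, 1 CpG at chr4:155858264 read as nearly unmethylated, at 0.116% in WT, 1.11% in HET and 0.613% in KO. Its measured neighbours in the same tile, at chr4:155858120 to chr4:155858169, stood at 90.7 to 98.6% in WT. Reads were aligned to the reference genome. A T in place of the C in the strain of the embryos would read the same way, and their sequence at this position was not tested. This CpG is pooled into the Dvl1 tile, whose WT level of 78.9% placed it among the tiles at 20 to 80%. When each CpG was given equal weight and levels were tested with limma, the Dvl3 body rose by 1.29 points (adjusted p = 0.00198) and the Dvl2 promoter by 0.49 points (adjusted p = 0.0361). Both missed the threshold when weighted by reads in the quasi-binomial test. The weights and the test changed together, and their parts were not separated. With limma 63.9% of all bodies and 33.3% of all promoters passed upwards. With the promoter set at the 5′ end only, the Fzd6 body rose by 5.04 points (adjusted p = 9.92e-04).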
